A study of Mus musculus with 2 samples.

Results

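The 10 genes described here encode RNA-binding proteins that set neural splicing programmes: Ptbp1 and Ptbp2 (PTB family), Elavl2, Elavl3 and Elavl4 (neuronal Hu proteins), Nova1 and Nova2 (NOVA family), and Rbfox1, Rbfox2 and Rbfox3 (RBFOX family). They were taken by name from a list of such regulators and are 10 of the 31054 features of the P2 matrix and of the 31053 genes of the E18 matrix, with 10 of 10 found in each. The P2 library came from the dorsal and lateral ventricular-subventricular zone (V-SVZ, where neural stem cells line the ventricle walls) of Emx1Cre;R26Eyfpfl/fl mice at postnatal day 2, after the cortex had been taken off. In these mice Cre is driven from Emx1, a gene of the cortical primordium, so EYFP marks cells that descend from it. The E18 library came from CD1 mice at embryonic day 18 and held cortex and dorsal V-SVZ together, with no EYFP. Both suspensions were papain-digested and sorted for live cells by propidium iodide and the DNA dye DRAQ5. Each age had 1 library, how many animals went into it is not stated, and age, dissection, mouse line and library cannot be told apart.

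In precursors PTBP1 represses many neuronal exons, among them an exon whose skipping sends the Ptbp2 transcript to decay, so loss of PTBP1 lets PTBP2 protein appear. The neuronal microRNA miR-124 targets Ptbp1, and PTBP2 in turn holds back exons that are used only in mature neurons. Hu proteins bind AU- and U-rich RNA and stabilise transcripts, NOVA proteins bind YCAY clusters, and RBFOX proteins bind UGCAUG, each steering exon choice in neurons; the protein of Rbfox3 is the neuronal antigen NeuN. UMI counts do not show splicing, so what follows are transcript levels and not isoforms.

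In the mm10 annotation, Ptbp1 lies on chromosome 10 from 79854427 to 79864771 (plus strand), and its transcription unit overlaps the antisense genes Plppr3 and Gm17134. Ptbp2 lies on chromosome 3 from 119718742 to 119784466 and Elavl3 on chromosome 9 from 22015005 to 22052023, both on the minus strand. The largest unit was Rbfox1, 1526 kb on chromosome 16. Elavl3 shares its strand with the overlapping predicted gene Gm49318, and Nova2, Rbfox2 and Rbfox3 each overlap 1 antisense gene. Reads of such neighbours may not be fully apart in the deposited counts.

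RefSeq promoter windows (GRCm38.p6, 250 bases before to 50 after a start) matched 9 of the 10 genes, in 18 windows, and Rbfox2 was not matched. They were searched on both strands for CAGATG and CAGCTG, E-box letters, the kind of motif that bHLH transcription factors bind. CAGCTG was found in 9 of 18 windows from 6 genes and CAGATG in 4 of 18 windows from 2 genes, against 16.3% and 17.2% of all 32851 promoter windows; several windows of 1 gene overlap, and a match is a description only. 3 windows are shown because the genes stand for the patterns below: Ptbp1 was lower in neurons, and Elavl3 and Elavl4 were higher. The capitals mark the E-box letters. The windows are chr10:79854182-79854481 (plus strand) for Ptbp1, chr9:22051974-22052273 (minus strand) for Elavl3 and chr4:110287462-110287761 (minus strand) for Elavl4. Elavl4 has other windows as well, and the one at chr4:110351862-110352161 holds neither motif.
Ptbp1: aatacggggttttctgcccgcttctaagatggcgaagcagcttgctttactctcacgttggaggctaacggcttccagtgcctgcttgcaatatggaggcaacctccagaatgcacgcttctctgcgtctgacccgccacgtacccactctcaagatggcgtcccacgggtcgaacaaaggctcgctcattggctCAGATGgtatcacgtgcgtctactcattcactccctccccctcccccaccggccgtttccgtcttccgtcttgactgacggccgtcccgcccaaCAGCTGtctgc
Elavl3: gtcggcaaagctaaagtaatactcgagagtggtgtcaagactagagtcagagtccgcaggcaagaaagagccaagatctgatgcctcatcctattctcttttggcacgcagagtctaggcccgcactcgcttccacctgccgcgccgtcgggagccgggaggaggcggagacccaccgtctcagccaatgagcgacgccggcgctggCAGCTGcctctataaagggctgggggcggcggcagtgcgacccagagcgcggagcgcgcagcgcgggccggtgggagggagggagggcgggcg
Elavl4: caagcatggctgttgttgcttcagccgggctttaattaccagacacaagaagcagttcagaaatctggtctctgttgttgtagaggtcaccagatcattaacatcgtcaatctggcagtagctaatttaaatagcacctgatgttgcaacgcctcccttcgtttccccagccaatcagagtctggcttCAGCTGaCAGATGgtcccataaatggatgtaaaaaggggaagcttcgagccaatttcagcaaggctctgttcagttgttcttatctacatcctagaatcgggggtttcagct
CAGCTG therefore stood in the windows shown here of a gene that was lower and of genes that were higher in neurons.

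After filtering, 2296 P2 cells with a median of 12525 UMIs and 2496 E18 cells with a median of 6574 UMIs were clustered without the 10 genes and without the other splicing genes listed below. Class names stand for cells that are like a type by its markers. The P2 library gave 180 stem cells, 152 inhibitory intermediate progenitors, 204 cycling cells, 861 inhibitory neuroblasts, 84 interneurons, 228 striatal neurons, 216 excitatory neurons, 81 oligodendrocyte precursors, 43 microglia and 9 ependymal cells. 238 P2 cells stayed unnamed, 169 of them in a cluster led by Nr2f2 and Adarb2. The E18 library gave 92 radial precursors, 111 cycling cells, 99 excitatory intermediate progenitors, 527 newborn excitatory neurons, 1315 excitatory neurons, 168 interneurons (Lhx6 and Sst), 123 inhibitory neuroblasts (Adarb2 and Sp8), 51 oligodendrocyte precursors and 10 microglia. Gad2 was at 537 CPM in P2 inhibitory neuroblasts and at 40.2 CPM in P2 excitatory neurons, and Neurod6 at 2.35 and 308 CPM. Both genes are in the marker lists that gave the names, so these levels describe the classes and are no separate check. Of the 3506 CPM summed over inhibitory neuroblast markers in P2 excitatory neurons, 3358 came from Igfbpl1. Markers of a different class outnumbered a cluster's own among its 10 leading genes in 3 of the 5 P2 neuroblast clusters (3, 5 and 6), in 2 of the 6 E18 excitatory neuron clusters (0 and 8) and in the E18 neuroblast cluster (9).

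Levels are CPM, a gene's UMIs divided by all UMIs of the class and put on the usual CPM scale, with 95% intervals that cover counting error only. They are not scaled by transcript length, so they are compared between classes and not between genes. Ratios are on the log2 scale, and a gene with 20 or more UMIs in both classes together is called higher or lower past 1 (2-fold). With 1 library per age and cells that are not replicates, no p-value is given. The barcode lists of the libraries shared 0 sequences.

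In the E18 excitatory series Ptbp1 stood at 73.9 CPM in radial precursors (53.0 to 100.2), 100.4 in cycling cells (82.1 to 121.5), 66.3 in intermediate progenitors, 35.8 in newborn neurons and 14.3 in excitatory neurons (12.1 to 16.6). The intervals of intermediate progenitors, newborn and excitatory neurons do not overlap, and those of the precursor classes do. Ptbp2, the neuronal paralogue, was at 91.9, 96.6, 124, 147 and 116 CPM over the same stages. Its E18 excitatory neuron over radial precursor ratio was 0.33 (-0.07 to 0.77), so no difference was detectable at this depth. Newborn excitatory neurons over radial precursors gave Ptbp2 0.68 (0.26 to 1.13), and E18 inhibitory neurons 0.62 (0.17 to 1.09), both within the call limits. Ptbp1 was lower, at -2.37 (-2.88 to -1.84), or 5.18-fold.

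Each of the 3 Hu genes was higher in E18 excitatory neurons than in radial precursors, but their courses differed, and with coarser clustering Elavl4 was at -0.10 in that ratio. Elavl3 was at 79.3, 217, 355, 670 and 820 CPM from radial precursor to excitatory neuron. Elavl2 was at 34.2, 113, 647.5, 289.5 and 166 CPM, and Elavl4 at 41.4, 136, 573, 252 and 96.2 CPM. Elavl2 and Elavl4 thus peaked in the Eomes-positive intermediate progenitors, where Elavl3 had not reached its top. Of all Hu UMIs, Elavl3 made up 51.2% in radial precursors (40.1 to 62.1), 22.5% in intermediate progenitors (19.9 to 25.4) and 75.8% in excitatory neurons (75.0 to 76.5). Excitatory neurons over newborn neurons gave Elavl4 -1.39 (-1.53 to -1.25), Elavl2 -0.80 (-0.92 to -0.68) and Elavl3 0.29 (0.22 to 0.36). In that contrast 0 of the 10 genes were higher (12.1% of genes) and 2 lower (8.35% of genes), Ptbp1 and Elavl4.

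The RBFOX genes came up at different stages of the E18 excitatory series. Rbfox2, the family member known from many tissues, was already at 28.8 CPM in radial precursors and stood at 55.4, 195.5, 407 and 323 CPM in the later stages. Rbfox3 had 0 UMIs in radial precursors, where a floor of 3 UMIs is 5.41 CPM, and 13.4, 124, 106 and 109 CPM afterwards. Rbfox1 had 0 UMIs in radial precursors as well, and 11.5, 8.50, 275 and 305 CPM afterwards. Rbfox3 was thus near the level of the pooled neuron classes in intermediate progenitors, where Rbfox1 was still low. By cluster, Rbfox3 ran from 45.3 to 224 CPM in the 6 excitatory neuron clusters and from 72.5 to 143 CPM in the 2 newborn clusters. Of the NOVA genes, Nova2, the main cortical member, was at 14.4, 25.8, 27.2, 85.04 and 98.9 CPM. Nova1 stayed between 3.40 and 12.6 CPM, on 57 UMIs in all 1315 excitatory neurons.

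**Figure D1:**
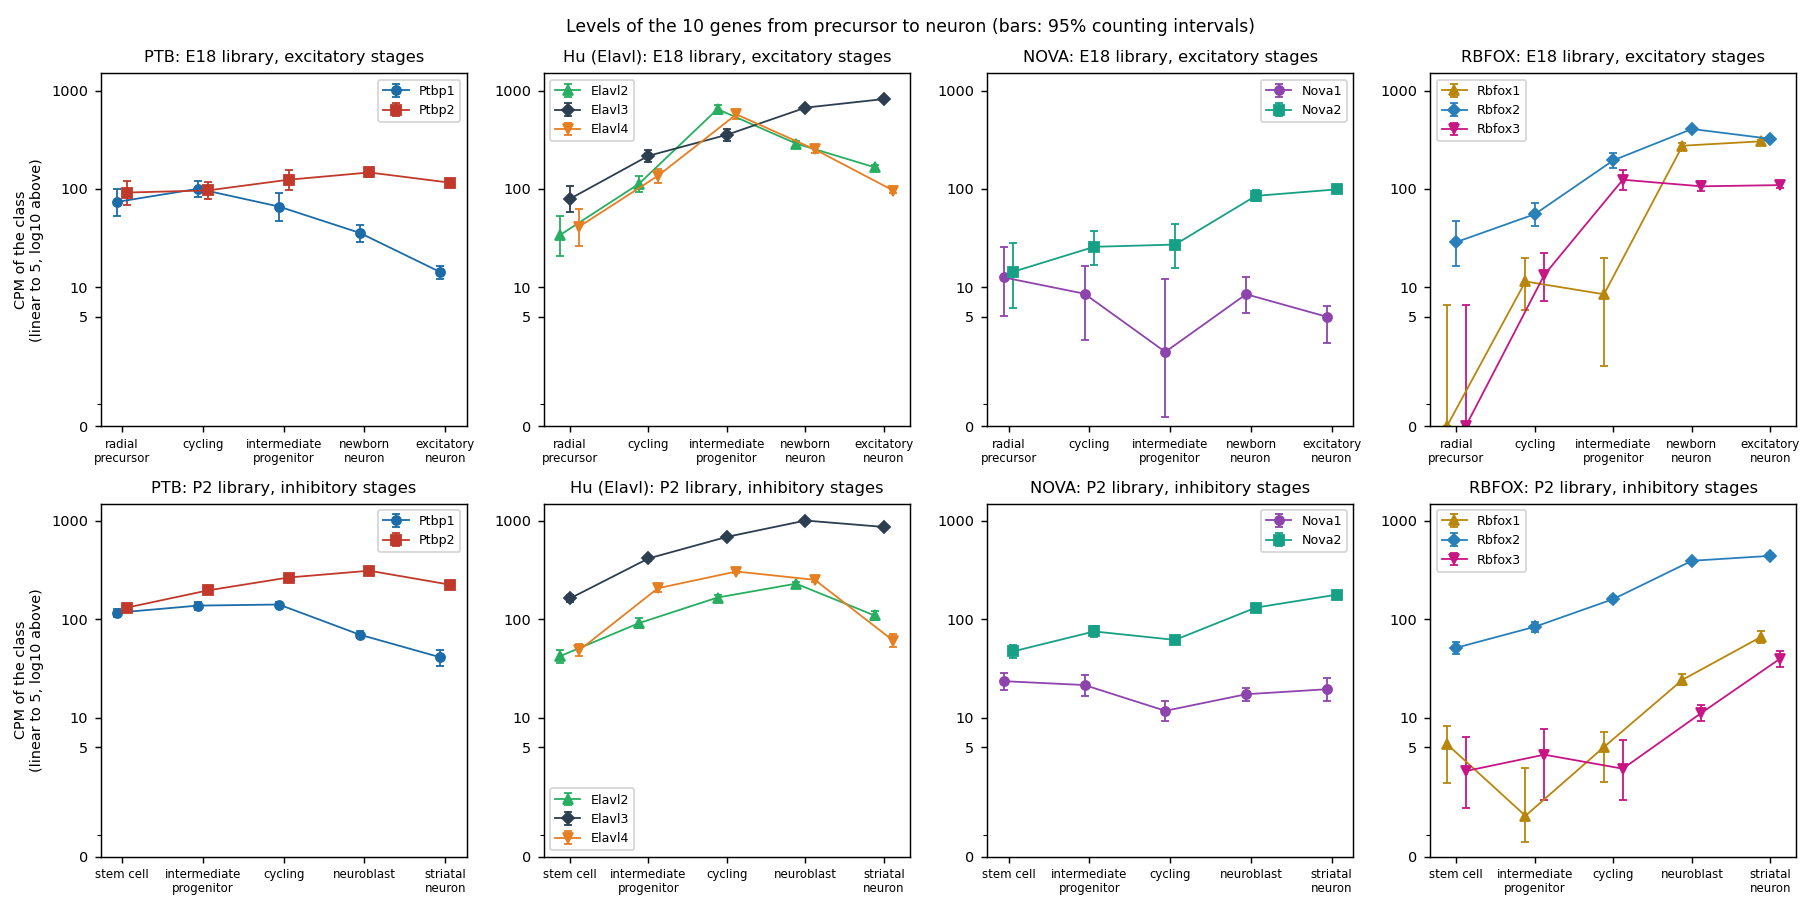
Levels of the 10 genes by family (columns) over 5 stages of the E18 excitatory series (upper row) and 5 P2 classes from stem cell to striatal neuron (lower row), in CPM on an axis that is linear to 5 and log10 above, with 95% counting intervals. The P2 classes are ordered by their markers and are not shown to descend from each other. Ptbp1 ends at 14.3 CPM in E18 excitatory neurons, and Elavl2 and Elavl4 peak in E18 intermediate progenitors at 647.5 and 573 CPM.

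Across the whole E18 excitatory contrast, 7 of the 10 genes were higher in excitatory neurons than in radial precursors, where 18.6% of all 11495 genes were, and 2 were lower, where 21.6% were. The 7 were the 3 Hu genes, Nova2 and the 3 RBFOX genes. With the empty class taken at a floor of 3 UMIs, Rbfox1 was 56.4-fold and Rbfox3 20.2-fold higher. The lower limits of their log2 ratios were 5.52 and 4.04. Rbfox2 was at 3.49 (2.79 to 4.30) and Elavl3 at 3.37 (2.94 to 3.83). Ptbp1 and Nova1 were lower, Nova1 on 7 precursor UMIs with an interval that includes 0 (-1.33, -2.47 to 0.05). Newborn excitatory neurons already differed: 7 genes were higher than in radial precursors (21.5% of genes) and Ptbp1 was lower (-1.05, -1.58 to -0.49; 15.8% of genes lower).

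E18 inhibitory neurons, the Lhx6 and the Adarb2 clusters together, gave nearly the same calls against the same radial precursors: 7 genes higher (22.4% of genes) and Ptbp1 lower (-2.25, -3.07 to -1.47; 16.6% of genes). Both contrasts share the radial precursors, and in this dissection these are not shown to be the precursors of the inhibitory cells. Elavl4 was at 2.96 (2.36 to 3.63) here and at 1.21 (0.62 to 1.88) in excitatory neurons. Elavl2 was at 3.23 (2.57 to 3.98) here and at 2.28 (1.63 to 3.01) there. Rbfox1 was unevenly spread, with 45.2 CPM in the Adarb2 and Sp8 neuroblasts (28.7 to 67.8) and 224 CPM in the Lhx6 and Sst interneurons (194 to 256).

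In the P2 library, Ptbp2 was higher in inhibitory neuroblasts than in stem cells. The P2 classes are ordered by their markers. Descent of the neuroblasts, striatal neurons or excitatory neurons from these stem cells is not shown. Ptbp1 was at 117 CPM in stem cells, 138 in intermediate progenitors, 141 in cycling cells, 69.8 in neuroblasts and 41.0 in striatal neurons. Ptbp2 was at 131, 196, 266, 311 and 224 CPM. The stem cell class pools clusters 10 and 11, with Ptbp2 at 162 and 79.1 CPM and Ptbp1 at 134 and 87.6 CPM. The size of each ratio over stem cells thus depends on the mix of these clusters. Neuroblasts over stem cells gave Ptbp2 1.25 (1.11 to 1.38) and Ptbp1 -0.74 (-0.91 to -0.57), so Ptbp1 missed the call. In P2 excitatory neurons, which are set against the same stem cells, Ptbp1 was lower (-1.29, -1.58 to -0.999) and Ptbp2 higher (1.16, 1.00 to 1.32).

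Of the 10 genes, 8 were higher in P2 neuroblasts than in stem cells, where 14.3% of 12564 genes were, and 0 were lower, where 23.8% were. They were Ptbp2, the Hu genes, Nova2 and the RBFOX genes. Without neuroblast clusters 3, 5 and 6, Rbfox1 was at -0.37 and Rbfox3 at 0.42, so neither was called. Elavl2, Elavl3 and Elavl4 had ratios of 2.44 (2.22 to 2.67), 2.63 (2.52 to 2.75) and 2.38 (2.17 to 2.59). Rbfox2 was at 2.94 (2.74 to 3.14), Nova2 at 1.48 (1.26 to 1.70), and Nova1 at -0.44 (-0.81 to -0.06), within the call limits. In P2 excitatory neurons, set against the same stem cells, these 8 were also higher (14.4% of genes) and Ptbp1 and Nova1 lower (23.2% of genes). There Rbfox1 was at 5.48 (4.87 to 6.17) and Rbfox3 at 4.85 (4.13 to 5.68), against 2.17 (1.54 to 2.87) and 1.51 (0.75 to 2.37) in neuroblasts.

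**Figure D2:**
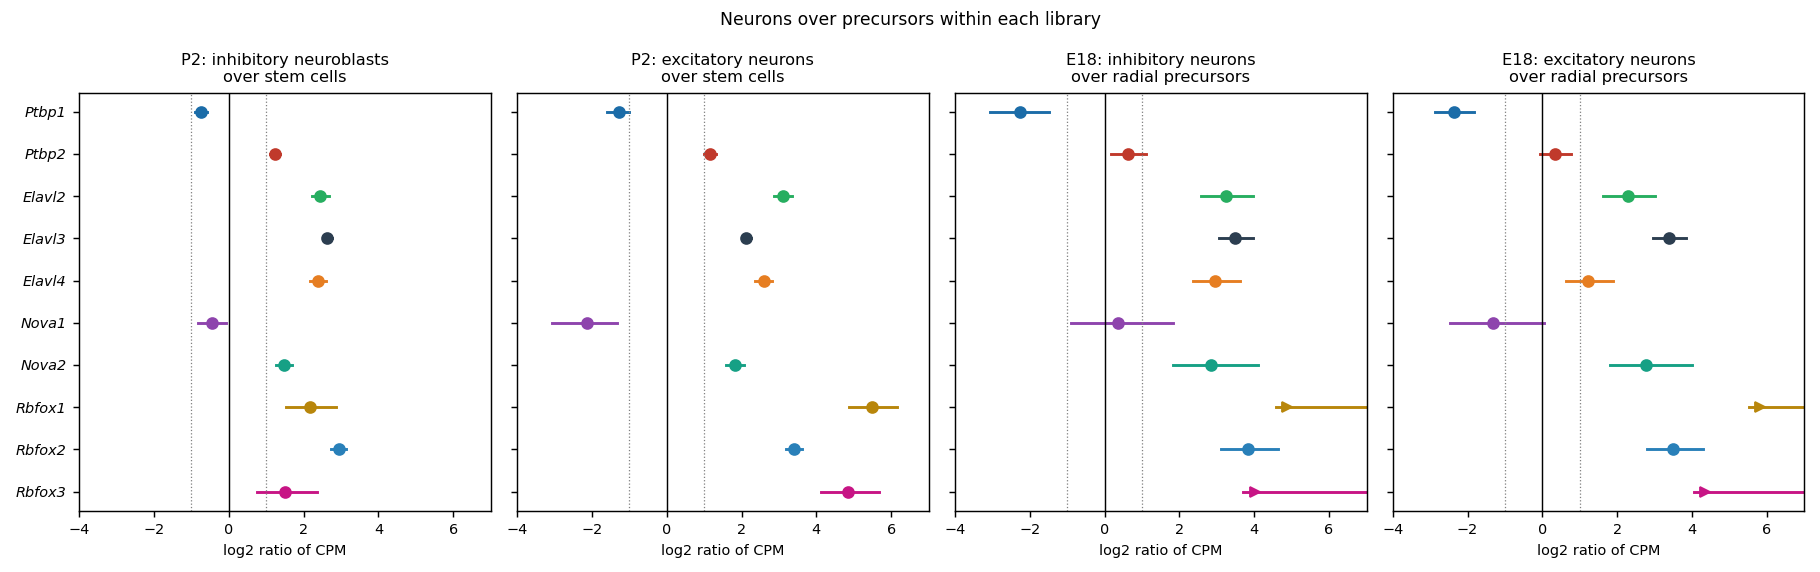
Log2 ratio of CPM for the 10 genes in 4 contrasts of neurons over precursors, with 95% counting intervals; dotted lines mark the call limits of 1 and -1, and triangles are ratios against a class with 0 UMIs, taken at 3 UMIs. Rbfox1 and Rbfox3 lie at 5.48 and 4.85 in P2 excitatory neurons and at 2.17 and 1.51 in P2 inhibitory neuroblasts, and their floor ratios at E18 are 5.82 and 4.34 in excitatory and 4.88 and 4.01 in inhibitory neurons.

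P2 cycling cells stood between stem cells and neuroblasts in most of the 10 genes. Their markers were of the inhibitory lineage, with Dlx1 at 618 CPM against 57.4 in stem cells. From stem cells over intermediate progenitors and cycling cells to neuroblasts, Elavl3 was at 163, 415, 687 and 1008 CPM, and Elavl4 at 48.4, 206.5, 306 and 251 CPM. Neuroblasts over cycling cells had 4 of the 10 genes higher (11.5% of genes), Nova2 and the 3 RBFOX genes, and 1 lower (9.44% of genes), Ptbp1 at -1.02 (-1.16 to -0.87). Elavl3 was at 0.55 (0.50 to 0.60) and Elavl4 at -0.28 (-0.37 to -0.19) in that contrast. Without the 3 neuroblast clusters not led by their own markers, 0 of the 10 genes were called in either direction, given here without a share of all genes.

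The 5 P2 neuroblast clusters differed among themselves. Clusters 1 (St18, Sp8 and Dlx6os1) and 9 (Prokr2, Synpr and Sp8) hold neuroblast markers among their 10 leading genes. Clusters 5 (Ntng1, Vax1 and Foxp2), 6 (Six3, Tshz1 and Foxp2) and 3 (Foxp2, Syt1 and Tshz1) hold none. Rbfox1 was at 3.65 CPM in cluster 1, 5.41 in cluster 9, 1.94 in cluster 5, 43.5 in cluster 6 and 82.9 in cluster 3 (68.6 to 99.2). Clusters 6 and 3 held 97 and 118 of the 237 Rbfox1 UMIs of the class. Rbfox3 was at 4.26, 7.74, 4.52, 13.5 and 33.7 CPM in clusters 1, 9, 5, 6 and 3, again highest in cluster 3.

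Elavl4 was at 351, 284 and 361 CPM in clusters 1, 9 and 5 and at 123 and 73.0 CPM in clusters 6 and 3. Ptbp1 was at 90.7, 70.4, 69.2, 58.3 and 39.3 CPM in clusters 1, 9, 5, 6 and 3. Nova2 was at 84.9, 128, 127, 173 and 180.5 CPM in the same order. Summed striatal neuron markers were also higher in clusters 6 and 3, at 275, 307, 387, 1458 and 1067 CPM in that order, and cycling markers were at 867, 315, 344, 321 and 227 CPM. Their part in the result was not tested. With clusters 1 and 9 alone, neuroblasts over stem cells gave 6 genes higher and 1 lower, with Rbfox1 at -0.37 in place of 2.17, Rbfox3 at 0.42 in place of 1.51 and Nova1 at -1.29 in place of -0.44. Clusters 6 and 3 also held 30 and 48 of the 109 Rbfox3 UMIs of the class.

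**Figure D3:**
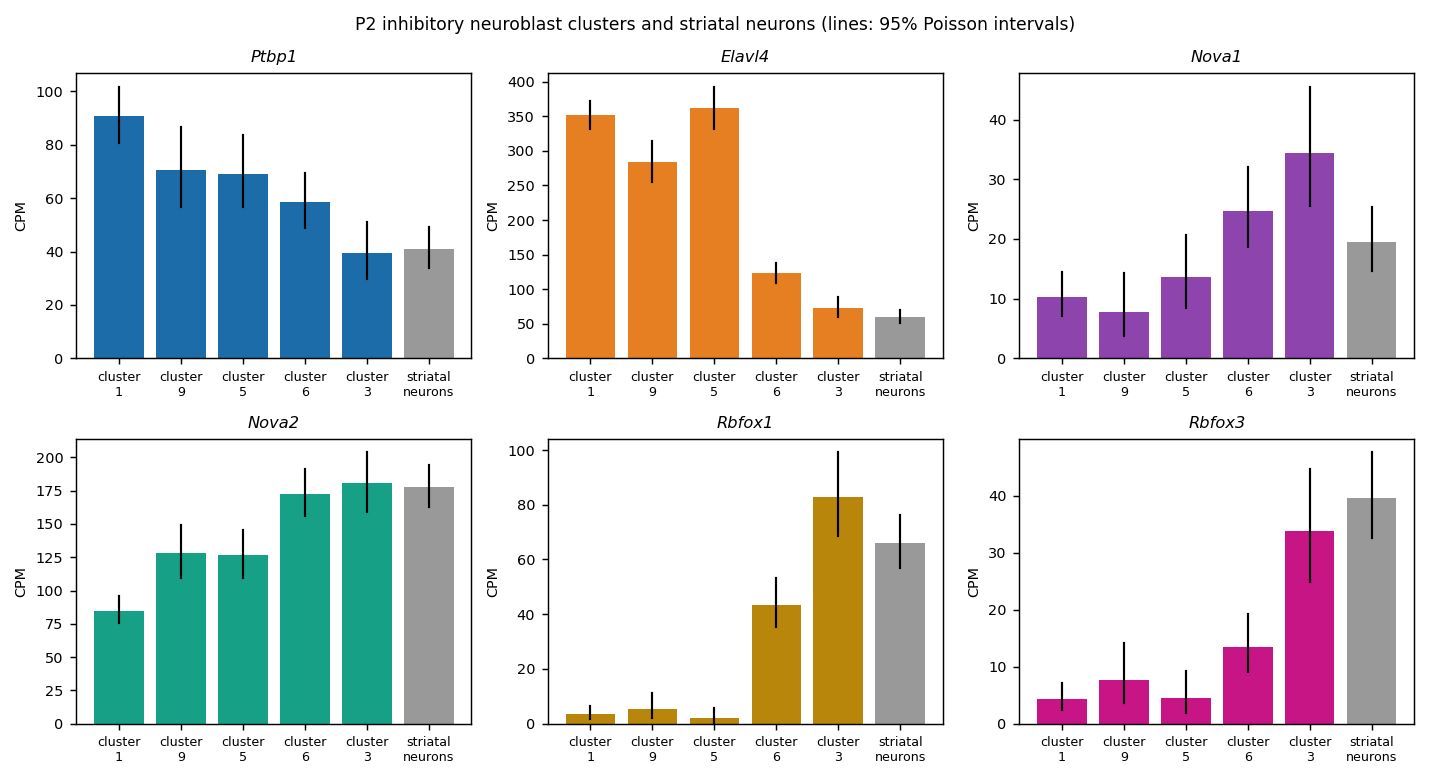
CPM of 6 genes in the 5 P2 inhibitory neuroblast clusters and in P2 striatal neurons (grey), with 95% Poisson intervals. Rbfox1 and Rbfox3 are high in cluster 3 (82.9 and 33.7 CPM) and in striatal neurons (66.1 and 39.6 CPM), where Elavl4 is low (73.0 and 60.4 CPM).

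P2 striatal neurons expressed Foxp1, a striatal transcription factor, at 2196 CPM. Against neuroblasts, 2 genes were higher (8.94% of genes): Rbfox3 at 1.83 (1.43 to 2.22) and Rbfox1 at 1.45 (1.16 to 1.73). 2 were lower (12.8% of genes): Elavl4 at -2.06 (-2.29 to -1.83) and Elavl2 at -1.07 (-1.25 to -0.90). Elavl3 was at -0.22 (-0.28 to -0.15), and its share of Hu UMIs was 83.6% in striatal neurons (82.3 to 84.96) and 67.7% in neuroblasts (66.9 to 68.4). Elavl4 was thus lower in striatal neurons than in neuroblasts, and in E18 excitatory against newborn neurons, but striatal neurons are not shown to arise from these neuroblasts.

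The unnamed P2 cluster led by Nr2f2, Adarb2 and Prox1, genes of caudally derived interneurons, was compared by its leading genes. 8 of the 10 genes were higher than in stem cells (12.6% of genes) and Nova1 was lower (-1.11, -1.82 to -0.45; 26.0% of genes lower). Rbfox3 was at 22.2 CPM and Rbfox1 at 26.3 CPM in these 169 cells, and Elavl4 at 338 CPM.

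The share of Ptbp2 among PTB UMIs sets both paralogues against each other in each class. It was 53.0% in P2 stem cells (49.8 to 56.1), 58.8% in intermediate progenitors, 65.3% in cycling cells, 81.7% in neuroblasts (80.4 to 82.9) and 84.6% in striatal neurons. P2 excitatory neurons stood at 86.0% (83.5 to 88.2) and P2 interneurons at 85.6% (81.9 to 88.8). At E18 it was 55.4% in radial precursors (44.7 to 65.8), 65.2% in intermediate progenitors, 80.4% in newborn and 89.0% in excitatory neurons (87.3 to 90.6). P2 oligodendrocyte precursors lay between P2 stem cells and neuroblasts, at 74.6% (70.0 to 78.9). E18 oligodendrocyte precursors were at 68.1% (52.9 to 80.9) on 47 UMIs, an interval that overlaps those of radial precursors and newborn neurons. P2 microglia were at 11.6% (6.66 to 18.5) and the 9 P2 ependymal cells at 11.4% (5.59 to 19.9), on 88 UMIs. The share is of UMIs, not of protein.

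**Figure D4:**
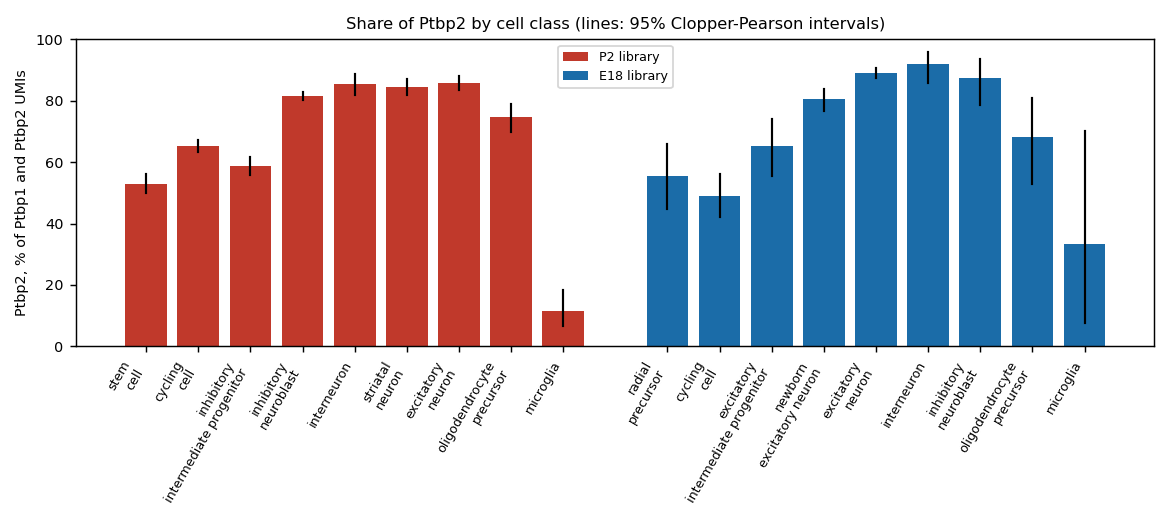
Ptbp2 as a percentage of Ptbp1 and Ptbp2 UMIs in 9 classes of the P2 library and 9 of the E18 library, with 95% Clopper-Pearson intervals. Neuronal classes of both libraries lie between 80.4% and 91.9%, stem cells and radial precursors at 53.0% and 55.4%, and P2 microglia at 11.6%.

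Inhibitory and excitatory neurons were then set side by side within each library. In P2, neuroblasts against excitatory neurons had 1 gene higher (8.71% of genes), Nova1 at 1.69 (0.90 to 2.59), and 2 lower (8.81% of genes), Rbfox1 at -3.31 (-3.53 to -3.09) and Rbfox3 at -3.34 (-3.67 to -3.02). Rbfox1 stood at 24.2 CPM in neuroblasts against 240 CPM in excitatory neurons, and Rbfox3 at 11.1 against 113 CPM. The highest neuroblast cluster reached 82.9 CPM of Rbfox1, still under the excitatory level. P2 interneurons were at 29.7 CPM of Rbfox1 and 56.1 CPM of Rbfox3.

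At E18, inhibitory neurons had 2 genes higher than excitatory neurons (7.50% of genes), Elavl4 at 1.74 (1.58 to 1.90) and Nova1 at 1.69 (0.92 to 2.41), and 0 lower (9.73% of genes). Elavl4 stood at 322 CPM in inhibitory against 96.2 CPM in excitatory neurons, and newborn excitatory neurons, which are not in this contrast, had 252 CPM. Rbfox1 was at -0.93 (-1.13 to -0.74), just inside the call limit. Nova1 was called higher in inhibitory neurons in both libraries, at 17.3 against 5.36 CPM in P2 and at 16.2 against 5.02 CPM at E18, but in P2 the call was lost with clusters 1 and 9 alone.

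Shares of cells with a UMI were compared after thinning each cell to 3000 UMIs, and free RNA sets their floor. Rbfox1 was found in 48.3% of 201 thinned P2 excitatory neurons (79.6% unthinned), 8.53% of 821 neuroblasts (15.8%) and 2.44% of 164 stem cells (6.11%). P2 microglia gave 2.78% of 36 thinned cells (4.65% unthinned), with a median depth of 19431 UMIs against 9556 in neuroblasts and 12248 in excitatory neurons. The thinned stem cell share of Rbfox1 was near that of microglia, which is 1 of 36 cells, so it cannot be told from background. The P2 ratios of Rbfox1 over stem cells rest on a stem cell level of 5.38 CPM, on 22 UMIs. The thinned Rbfox3 share was 2.68% in neuroblasts (9.87% unthinned) and 2.78% in microglia (9.30%), 1 of 36 cells there. The levels, 11.1 CPM in neuroblasts on 109 UMIs and 4.48 CPM in microglia on 4 UMIs, lie the other way, so no order is read from that share. Elavl3 was found in 93.1% of thinned neuroblasts (98.3%), 32.3% of stem cells (70.0%) and 2.78% of microglia (20.9%). Rbfox1 was found in 0 of 92 unthinned E18 radial precursors, where a floor of 3 cells is a share of 3.26%.

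P2 and E18 cells were compared in 4 classes found in both libraries. P2 stem cells against E18 radial precursors had 2 of 9 genes tested higher (22.9% of genes) and 0 lower (6.29% of genes): Nova2 at 1.71 (0.70 to 2.94) and Elavl3 at 1.04 (0.59 to 1.51). Cycling markers summed to 4442 CPM in the P2 and 679 CPM in the E18 class, and astrocyte markers to 1816 and 867 CPM. Their part in the result was not tested. A minimum of 1000 genes per cell, and likewise keeping doublets, gave 5 genes higher. Coarser clustering gave 1 gene higher and 3 lower, with Elavl3 at -0.36. These counts under other settings are given without a share of all genes. P2 cluster 10 held most cycling markers (6553 CPM, against 906 in cluster 11), and without it Ptbp2 was at -0.22 in place of 0.51. Rbfox1 and Rbfox3 had 0 UMIs at E18, and their P2 levels of 5.38 and 3.91 CPM are under the E18 floor of 5.41 CPM. No direction is read for either, though Rbfox1, on 22 P2 UMIs, is among the 9 genes tested.

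P2 cycling cells had 5 genes higher than E18 cycling cells (18.1% of genes): Elavl3 at 1.66 (1.47 to 1.86), Rbfox2 at 1.53 (1.15 to 1.94), Ptbp2 at 1.46 (1.17 to 1.76), Nova2 at 1.26 (0.69 to 1.88) and Elavl4 at 1.17 (0.92 to 1.43). 2 were lower (11.6% of genes): Rbfox3 at -1.74 (-2.74 to -0.67) and Rbfox1 at -1.19 (-2.20 to -0.09). Rbfox3 had 24 UMIs in the P2 and 14 in the E18 cells, and Rbfox1 30 and 12. E18 microglia had 1 UMI of Rbfox3 (12.4 CPM) and 0 of Rbfox1, too few to set a free RNA level beside these. P2 and E18 cycling cells differ in kind, with Dlx1 at 618 CPM in the P2 and 90.8 CPM in the E18 cells and Fabp7, a radial glial marker, at 234 and 7246 CPM. Age and lineage cannot be told apart in this class. A minimum of 1000 genes per cell gave 3 genes higher and 1 lower, keeping doublets gave 1 lower, and testing only genes with 100 or more UMIs gave 0 lower.

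P2 oligodendrocyte precursors had 4 of 8 genes tested higher than E18 ones (30.6% of genes) and 0 lower (5.15% of genes). They were Elavl2 at 1.85 (0.97 to 2.88), Nova1 at 1.75 (0.72 to 2.99), Elavl3 at 1.23 (0.85 to 1.64) and Ptbp2 at 1.11 (0.58 to 1.69). Nova1 stood at 76.5 CPM in P2 oligodendrocyte precursors, on 112 UMIs, the highest of the 10 P2 classes, against 22.8 CPM at E18. Mature oligodendrocyte markers summed to 3127 and 279 CPM, and their part was not tested.

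P2 interneurons had 2 genes higher than E18 interneurons (20.5% of genes), Ptbp1 at 2.06 (1.12 to 3.14) and Ptbp2 at 1.14 (0.84 to 1.44), and 1 lower (10.1% of genes), Rbfox1 at -2.91 (-3.47 to -2.40). Ptbp1 stood at 50.3 against 12.1 CPM, on 61 and 11 UMIs, and Rbfox1 at 29.7 against 224 CPM. Testing only genes with 100 or more UMIs, and likewise a mean over cells, gave 1 gene higher. Within the E18 library Rbfox1 was at 45.2 CPM in the Adarb2 and Sp8 neuroblasts. The part of interneuron subtype or maturity was not tested. The remaining 7 genes lay between -0.68 and 0.69. P2 cluster 0 and E18 cluster 1, each with Neurod1, Unc5d and Sema3c among its leading genes, were also compared by number: Ptbp2 was higher at 1.18 (0.94 to 1.43; 17.1% of genes higher), Nova1 lower at -1.15 (-2.30 to -0.02; 4.48% of genes lower), and Ptbp1 at 0.23 (-0.24 to 0.71). The Ptbp2 ratio was thus past 1 in 4 of the 5 comparisons, but its interval reached under 1 in oligodendrocyte precursors (0.58), interneurons (0.84) and the newborn excitatory clusters (0.94).

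**Figure D5:**
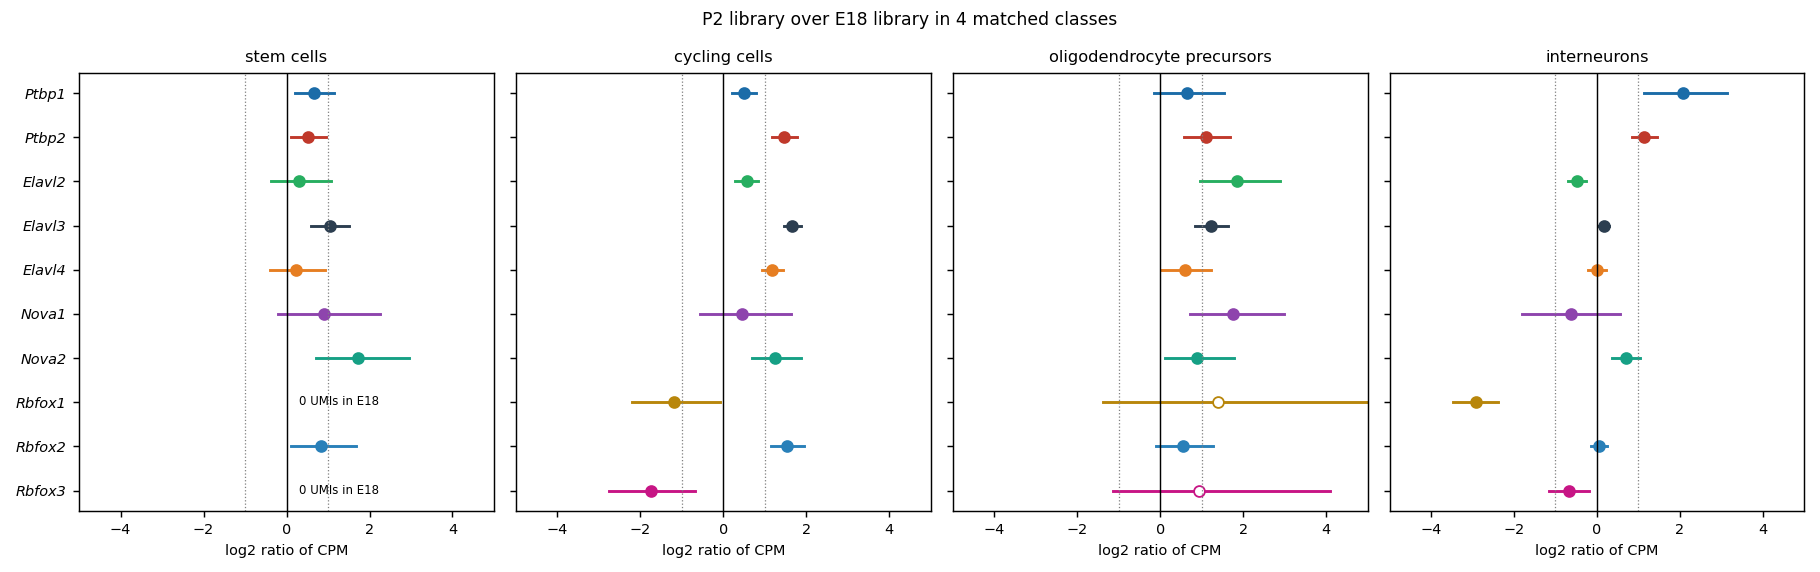
Log2 ratio of CPM, P2 library over E18 library, for the 10 genes in 4 classes, with 95% counting intervals; open symbols have under 20 UMIs in both classes together, and genes with 0 UMIs at E18 and a P2 level under the floor carry no symbol. Ptbp2 lies above 1 in 3 of the 4 panels, and Rbfox1 is at -2.91 in interneurons.

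EYFP marks P2 cells of cortical descent, with the limit that a cell without an EYFP UMI can still carry the label. EYFP was found in 81.9% of excitatory neurons, 48.3% of stem cells, 30.0% of neuroblasts, 12.3% of striatal neurons and 0.00% of 43 microglia (0 to 8.22%). Neuroblasts with EYFP (258 cells) against those without (603 cells) had 0 of the 10 genes called higher (1.61% of genes) or lower (339 of 11298 genes). The widest difference was Rbfox1, at 15.4 CPM with and 29.5 CPM without EYFP, a ratio of -0.94 (-1.40 to -0.50). EYFP was in 45.8% and 67.9% of clusters 1 and 9 but in 13.3%, 17.9% and 8.33% of clusters 5, 6 and 3, and clusters 6 and 3 hold most Rbfox1 UMIs. Within cluster 1 the Rbfox1 ratio was 1.10 (-0.80 to 3.29), on 8 and 4 UMIs, and within cluster 9 it was -0.11 (-2.72 to 3.29), on 5 and 2 UMIs. A mean over cells and a rule of 3 or more EYFP UMIs each gave 1 gene lower in the whole class, Rbfox1.

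Within clusters 1 and 9, Elavl4 was at -0.37 (-0.54 to -0.19) and -0.53 (-0.84 to -0.21), with EYFP over without. In cluster 9, Ptbp1 was at 82.8 CPM with EYFP and 37.1 CPM without, on 78 and 13 UMIs (1.16, 0.30 to 2.13), and in cluster 1 at -0.29 (-0.63 to 0.05). Stem cells with EYFP (87 cells) against those without (93 cells) had 0 of 9 genes tested called higher (2.39% of genes) or lower (3.27% of genes). Their Elavl2, Elavl3 and Elavl4 ratios were 0.77 (0.30 to 1.25), 0.78 (0.54 to 1.02) and 0.75 (0.31 to 1.19). These genes were at 53.5, 168 and 61.3 CPM in stem cell cluster 10 and at 23.5, 154 and 26.8 CPM in cluster 11. The stem cells were not compared by EYFP within a cluster, so the part of the cluster mix was not tested.

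Other RNA-binding protein genes, in 6 lists, set the 10 genes in context. Of 12 tested CELF, MBNL and other neural splicing factor genes, 9 were higher (18.6% of all genes) and 1 lower (21.6%) in E18 excitatory neurons against radial precursors, with a median of 2.40 where the median of all genes was -0.08. Srrm4, which drives neuronal microexons, was at 88.5 against 1.80 CPM, the precursor value being 1 UMI (5.62, 3.14 to 10.92), Celf3 at 3.97 (2.75 to 5.60), and Mbnl2 at -4.70 (-5.33 to -4.08). In P2 neuroblasts against stem cells, 7 of 13 were higher (14.3% of all genes) and 2 lower (23.8%), with a median of 1.53 where all genes had -0.08. There Srrm4 was at 4.37 (3.72 to 5.11), Celf3 at 3.78 (3.30 to 4.30) and Mbnl2 at -1.24 (-1.45 to -1.03).

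SR proteins are general splicing factors. Of 14 SR and related genes, 0 were higher and 1 lower in the E18 contrast (median -0.21), where 18.6% and 21.6% of all genes were, and 0 and 0 in the P2 contrast (median 0.19), where 14.3% and 23.8% were. The one lower was Srsf9, at -1.02 (-1.41 to -0.61). Of 17 hnRNP genes, Hnrnpab was higher at 1.06 (0.80 to 1.34) and Hnrnpf lower at -1.33 (-1.52 to -1.13) at E18 (median 0.23), where 18.6% of all genes were higher and 21.6% lower. In P2 0 of the hnRNP genes were called (median 0.29), beside 14.3% and 23.8% of all genes, and Hnrnpf was at -0.98 (-1.05 to -0.90).

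PTB relatives and partners split by gene. Raver2, which encodes a PTB-binding protein, was at -6.37 (-8.26 to -4.98) in the P2 and at -3.44 (-4.68 to -2.09) in the E18 contrast, and Matr3 at 0.59 (0.51 to 0.67) and 1.21 (0.89 to 1.55). In all, 0 of 6 were higher and 1 lower in P2 (median 0.32; 14.3% and 23.8% of all genes), and 1 of 5 was higher and 1 lower at E18 (median -0.35; 18.6% and 21.6%). Of 9 tested progenitor RNA-binding protein genes, 1 was higher and 4 lower at E18 (median -0.64; 18.6% and 21.6% of all genes), led by Qk, at 14.6 against 551 CPM (-5.24, -5.52 to -4.96), and Msi2 at -3.48 (-3.91 to -3.03). In P2, 0 were higher and 3 lower (median -0.24; 14.3% and 23.8%), with Qk at 179 against 1342 CPM and Igf2bp1 at -2.51 (-3.32 to -1.75).

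The REST and microRNA host list includes the host genes of miR-124. Rest, the repressor of neuronal genes, was at -2.86 (-3.21 to -2.52) in P2 and at -2.88 (-3.79 to -1.88) at E18, and Ctdsp1, a REST cofactor, at -3.02 (-3.50 to -2.57) and -5.63 (-6.73 to -4.61). Mir124a-1hg, a miR-124 host gene, was at 96.7 against 4.64 CPM in P2 (4.38, 3.73 to 5.12) and at 48.4 against 1.80 CPM at E18 (4.75, 2.26 to 10.05), there on 1 precursor UMI. Mir124-2hg was at 86.5 against 17.4 CPM in P2 (2.32, 1.97 to 2.69) and at 87.0 against 1.80 CPM at E18 (5.59, 3.11 to 10.90), also on 1 precursor UMI. Of 7 genes, 2 were higher and 3 lower in P2 (median -0.52; 14.3% and 23.8% of all genes), and 2 and 4 at E18 (median -1.95; 18.6% and 21.6%).

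Over the 17 classes of 30 or more cells, the genes most like each of the 10 were found by Pearson's r of log2(CPM + 10), each library centred on its own mean, among 6575 genes. Ptbp1 was most like Hmgb2 (0.946), Clic1 (0.940) and Rcbtb2 (0.938), and Ptbp2 like Dennd5b (0.969), Mex3d (0.963) and Hnrnpr (0.961). Elavl2 was most like Crebbp (0.938), Elavl3 like Gdap1 (0.976), Elavl4 like Eif4g2 (0.915) and then Elavl2 (0.905). Nova2 was most like Strbp (0.975), Nova1 like Ncam2 (0.880), Rbfox1 like Jph4 (0.931), Rbfox2 like Smarcc2 (0.982) and Rbfox3 like Prkar1b (0.947). Among the 10 themselves, Elavl3 and Rbfox2 had 0.941 and Ptbp1 and Rbfox1 -0.797, while Nova1 and Nova2 had 0.0148. Classes of 1 library share its depth and free RNA, so these values are descriptions with no p.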

How the data were processed

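The deposited matrices hold raw UMI counts, made by the authors with Cell Ranger 4.0.0 per the file headers, on mm10 per the submitters' processing notes (Cell Ranger 4). The P2 library held 2778 barcodes and 42572208 UMIs, and the E18 library 2922 barcodes and 19986915 UMIs. The P2 matrix has EYFP as 1 further feature.

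From these counts, cells with 500 or more genes and 10% or less mitochondrial UMIs were kept (336 P2 and 291 E18 barcodes removed). Scrublet's own threshold marked 4 P2 and 7 E18 cells, too few to have worked, so the top 5% of its doublet scores per library were dropped (146 and 135 cells). Each library was clustered on its own (2000 variable genes, 30 components, 15 neighbours, Leiden resolution 1; scanpy 1.11.5, leidenalg 0.10.2) without the 10 genes, the genes of the 6 lists, EYFP, mitochondrial, haemoglobin and sex-linked genes. Clusters were named from marker lists, by a rule that was adjusted once after a first run gave E18 clusters names that went against their leading markers. The 10x chemistry of each age is not stated and may differ, so P2 over E18 ratios could carry it.

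A class was described by the sums of its cells' UMIs. Levels carry exact Poisson intervals, ratios exact conditional intervals and shares Clopper-Pearson intervals (95%, scipy 1.17.1), which cover counting error only. Ratios were computed over all genes with 20 or more UMIs in the classes compared, and a log2 ratio past 1 was a call. The ratio step was run on simulated Poisson counts with known changes. These hold no spread between cells, clusters or libraries, so that run checks the computation only. Where a class had 0 UMIs, 3 UMIs over the class stood in as its floor. The 10 genes, the lists and the markers were chosen with earlier results of these data known. Besides the 10 genes, the text names from each list some of the 2 highest and 2 lowest genes in the E18 excitatory and the P2 neuroblast contrasts, and for each of the 10 the genes with the highest correlation, among genes reaching 50 CPM. Msi2 in E18 is among them, and Hnrnpf and Matr3 are given in both contrasts. With 1 library per age there are no replicates, no p-values and no test of the conditions.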

Additional observations from a re-analysis of the deposited data

Results flagged for a closer look

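The inhibitory over excitatory ratio had opposite signs in the libraries for 3 genes, with counting intervals that exclude 0 on both sides. The difference between the libraries was not tested, since each is 1 library. Elavl2 was at -0.67 (-0.78 to -0.56) in P2 and at 0.96 (0.81 to 1.10) at E18. Elavl4 was at -0.22 (-0.33 to -0.10) in P2 and at 1.74 (1.58 to 1.90) at E18. Rbfox2 was at -0.47 (-0.55 to -0.38) in P2 and at 0.34 (0.21 to 0.47) at E18. The classes behind the ratios differ: 861 neuroblasts against 216 excitatory neurons of 1 cluster in P2, and 291 interneurons and neuroblasts against 1315 excitatory neurons of 6 clusters at E18. They also differ in maturity, since the P2 excitatory cluster has Neurod1, Unc5d and Sema3c among its leading genes, as an E18 newborn cluster does, while newborn neurons are not in the E18 ratio. Elavl2, Elavl4 and Rbfox2 were at 322, 322 and 410 CPM in E18 inhibitory neurons and at 289.5, 252 and 407 CPM in E18 newborn excitatory neurons. Maturity and age cannot be told apart here. The P2 sign of Elavl4 depended on the neuroblast clusters used, with 0.19 when those not led by their own markers were left out.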

How the results depend on the processing

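No paired analysis was possible because each age has 1 library, and for the same reason no replicate could be left out. Scaling by the median gene changed no count of the 10 genes. Counts over all genes depended on the UMI minimum: 100 UMIs gave 36 to 1883 genes higher and 45 to 1800 lower over 18 comparisons, and no minimum 505 to 3130 and 680 to 4551, against 182 to 2715 and 339 to 2997. A mean over cells moved 1 and 2 of the 18 counts by over 1.5 times. Leaving out clusters with more markers of another class gave 618 to 2715 genes higher and 457 to 2852 lower over 11 comparisons. Counts of the 10 genes outside the main setting are given without a share of all genes, so they are not read against one. Except for the clusters left out and the minimum of UMIs, whose effect follows from what they drop, the cause was not tested.

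Leaving out clusters with more markers of another class gave, for P2 neuroblasts, 1 gene lower than in stem cells (Nova1 at -1.29), 0 higher and 0 lower than in cycling cells and 0 higher than in excitatory neurons. Ratios that changed sign there were Rbfox1 over stem cells (-0.37), Elavl4, Nova1 and Rbfox1 over cycling cells (0.12, -0.29 and -0.28) and Elavl4 over excitatory neurons (0.19). Leiden resolution 0.5 gave 1 gene lower in E18 excitatory neurons than in radial precursors, 1 lower in striatal neurons than in neuroblasts, and 1 higher and 3 lower in P2 than in E18 stem cells; the ratio changed sign for Elavl4 in the first (-0.10) and Elavl3 in the third (-0.36). A minimum of 1000 genes gave 0 lower and Elavl4 at 0.17 in neuroblasts over cycling cells, Elavl4 at 0.12 over excitatory neurons, 5 higher in P2 over E18 stem cells, and 3 higher and 1 lower in cycling cells. Keeping doublets gave 2 higher and 0 lower in neuroblasts over cycling cells, 5 higher in P2 over E18 stem cells and 1 lower in cycling cells. A mitochondrial limit of 5% gave 0 lower in neuroblasts over cycling cells, 1 lower in striatal neurons over neuroblasts and 1 lower in E18 inhibitory over excitatory neurons. At 100 UMIs the counts were 1 lower in E18 excitatory and 0 lower in E18 inhibitory neurons over radial precursors, 1 higher in E18 inhibitory over excitatory neurons, 0 lower in P2 over E18 cycling cells, 1 higher in interneurons and 0 lower in the newborn excitatory clusters. A mean over cells gave 1 lower in E18 inhibitory over excitatory neurons, 1 higher in P2 over E18 interneurons, where the Elavl3 ratio turned to -0.040, 2 higher in the newborn excitatory clusters, 1 lower in neuroblasts with EYFP and 2 higher in stem cells with EYFP. With 3 or more EYFP UMIs, 1 gene was lower in neuroblasts with EYFP.

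Chosen after seeing the data, P2 stem cells without cluster 10 gave 1 gene higher than at E18, and the Ptbp2 ratio turned to -0.22. The EYFP comparison within cluster 1 gave Nova1 0.80, Rbfox1 1.10 and Rbfox2 0.30, and within cluster 9 it gave 1 gene higher and Rbfox2 0.098. The Nr2f2 cluster, the newborn excitatory clusters, the EYFP stem cell comparison and the added ratios of stages were also chosen after seeing the data. Resolution 0.5 gave no P2 over E18 value for cycling cells, and 1000 genes none for oligodendrocyte precursors and interneurons. Pooling stem cells with maturing astrocytes was not run, as no cluster was so named. E18 radial precursors hold 554957 UMIs, so that 0 UMIs allow 5.41 CPM.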
